A study of Mus musculus with 36 samples.

Results

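The genes described here are 9 transcription factors that pattern the eye, its stalk and neighbouring tissue in the embryo: Wt1, Sox1, Pax2, Vax1, Vax2, Foxd1, Six3, Six6 and Rax. They were taken by symbol from the deposited gene count table, which holds 55487 genes, and all 9 were found. Wt1 and Sox1 were chosen by their naive levels, which differ widely between the nerve regions, so their naive values are given as a description without a test.

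The data are bulk RNA-seq of 36 libraries from the unmyelinated optic nerve (UON), the myelinated optic nerve (MON) and the retina of C57BL/6 mice aged 2 to 4 months, with 12 libraries for each tissue. The mice were bilaterally naive, or had a unilateral optic nerve crush and were killed 3 days (3D) or 2 weeks (2W) later, or had microbeads injected into 1 anterior chamber (glaucoma) and were killed at 3D, 2W or 6 weeks (6W). Each group was 1 pool of RNA from 2 female mice and 1 pool from 2 male mice, so n = 2 pools per group throughout, and sex and pool cannot be told apart within a group. All 3 tissues came from the same mice. The UON sample is the nerve head end of the nerve and the MON sample comes from farther back, with a stretch between them, where myelin begins, left out of both. Crush was applied to the nerve in the orbit, and bead injection blocks fluid outflow and raises the pressure in the eye.

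Eye patterning begins when Six3, Six6 and Rax, the eye field factors, mark the anterior neural plate. SHH from the midline then divides the optic vesicle, with Pax2, Vax1 and Vax2 (paired and ventral homeobox factors) on the stalk and ventral side, from which the astrocytes of the optic nerve arise. Foxd1 is a forkhead factor of the temporal retina and of mesenchyme around developing organs. Wt1 is the Wilms tumour zinc finger factor of kidney, gonad and mesothelium, and Sox1 is a SOXB1 factor of early neural cells.

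Library totals were 16.2 to 58.5 M estimated counts in UON, 16.3 to 78.1 M in MON and 19.9 to 56.0 M in retina, and the naive MON pools lay far apart, at 78.1 M (female) and 17.8 M (male). A read pair adds 4 counts, and 3 read pairs (12 counts) were taken as the floor under which a gene was not told from 0; this covers counting error only. Levels are CPM (counts scaled to a common library size) after TMM scaling over the 36 libraries, or the deposited FPKM where genes are compared with each other. The labelled tissues were checked against cell markers. The summed level of 7 oligodendrocyte genes was 3331 to 43870 CPM in UON and 46860 to 165600 CPM in MON, without overlap, and the UON sum was 5.57 to 53.6% of the MON sum of the same mice (median 17.6%). The summed level of 10 photoreceptor genes was 56640 to 70960 CPM in retina, 13.1 to 381 CPM in UON and 10.2 to 169 CPM in MON. The summed level of 6 lens, cornea and conjunctiva genes was 2081 CPM in the MON library of the glaucoma 6W female pool and 597 CPM in that of the glaucoma 2W male pool, against 3.33 to 9.02 CPM in the other MON libraries. In bulk tissue, fewer cells of a type and less RNA per cell cannot be told apart.

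Upstream sequences are shown for 3 members. In injured mice Pax2 and Vax1 had the same order of tissues (UON above MON above retina), whereas Six3 was lower in MON than in both UON and retina. Each is the 250 bases before a RefSeq transcription start on GRCm38.p6, read 5′ to 3′ on the strand of the gene: chr19:44755502-44755751 (plus strand) for Pax2, chr19:59170398-59170647 (minus strand) for Vax1 and chr17:85620584-85620833 (plus strand) for Six3. The Pax2 and Vax1 windows hold no annotated exon, and the Six3 window overlaps an exon of the antisense gene Gm28528. Capitals mark the CCAAT box (CCAAT or its reverse complement ATTGG) and the GC box (GGGCGG or CCGCCC).
Pax2: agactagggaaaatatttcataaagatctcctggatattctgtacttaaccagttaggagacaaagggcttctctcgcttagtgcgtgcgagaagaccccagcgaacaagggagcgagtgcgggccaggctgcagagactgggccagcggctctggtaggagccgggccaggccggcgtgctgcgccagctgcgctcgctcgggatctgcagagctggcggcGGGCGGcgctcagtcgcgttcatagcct
Vax1: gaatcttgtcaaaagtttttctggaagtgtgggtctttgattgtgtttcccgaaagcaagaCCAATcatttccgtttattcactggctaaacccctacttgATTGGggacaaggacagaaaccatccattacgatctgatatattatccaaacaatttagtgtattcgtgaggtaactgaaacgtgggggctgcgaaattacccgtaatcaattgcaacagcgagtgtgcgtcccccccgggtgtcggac
Six3: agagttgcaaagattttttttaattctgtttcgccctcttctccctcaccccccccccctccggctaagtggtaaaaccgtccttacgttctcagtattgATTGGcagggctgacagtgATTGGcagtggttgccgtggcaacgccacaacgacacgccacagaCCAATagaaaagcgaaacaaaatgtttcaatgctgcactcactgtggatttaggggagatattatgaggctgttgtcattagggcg

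The Pax2 window held 1 GC box and no CCAAT box. The Vax1 window held 2 CCAAT boxes and the Six3 window 3, and neither of these 2 windows held a GC box. A CCAAT box is found on either strand in 33.9% and a GC box in 32.7% of 32851 windows of the same length. The homeodomain core TAATTA, found in 4.84% of all windows, was in none of the 3 windows shown, which says only that these letters are not there. The bases are 60.8% G or C in the Pax2 window shown, 48.8% in that of Six3 and 44.8% in that of Vax1.

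The question of the naive comparison is which genes set the UON apart from its neighbours. Wt1 (chr2:105126529-105173616) was found almost only in UON. In the naive UON it stood at 11.8 CPM in the female pool and 7.33 CPM in the male pool, in both naive MON libraries it was listed at 0, and in naive retina it stood at 0.16 and 0.18 CPM (8 counts each, under the floor). The naive UON mean of 9.57 CPM was 21.0-fold the mean floor of the naive MON libraries, 0.456 CPM. That floor was 0.191 CPM in the female pool and 0.721 CPM in the male pool, so 21.0 is no lower bound. The fitted log2 fold change of UON over MON, 11.76, rests on zeros and sets no size. As a description, the fitted values of the nearest called genes with an official symbol were 10.18 for Pkp1, a desmosome protein, and 10.13 for Prss56, a serine protease of the eye.

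Sox1 (chr8:12395295-12400126, a single exon) was listed at 0 in both naive UON libraries and stood at 4.20 CPM (female pool) and 7.76 CPM (male pool) in naive MON, a mean of 5.98 CPM. No fold is set on it, since a value of 0 for this gene can be a failed estimate. Naive retina had 0.08 and 0 CPM. The fitted value of UON over MON (log2) was −11.09, and that of the nearest called gene with an official symbol, the clustered protocadherin Pcdha12, was −9.13.

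The other 7 members were tested between naive tissues. In UON against MON, Six6 was called higher and Rax called lower, by edgeR's quasi-likelihood test (a call needs a log2 fold change of more than 1 in size with an adjusted p below 0.05). That is 2 of 7, where 9.63% of the 23685 genes tested were called in either direction (4.83% higher and 4.80% lower). The other 5 were higher in UON but missed the threshold: Foxd1 by 3.19 ± 0.88 (log2, SE, adjusted p = 0.068), Pax2 by 1.56 ± 0.60 (adjusted p = 0.17), Vax2 by 1.35 ± 0.42 (adjusted p = 0.095), Six3 by 0.83 ± 0.27 (adjusted p = 0.11) and Vax1 by 0.49 ± 2.30 (adjusted p = 0.94). DESeq2 on the same libraries also called Foxd1 (adjusted p = 0.0027), Vax2 (adjusted p = 0.012) and Pax2 (adjusted p = 0.0499). The share of all genes that DESeq2 called is not given beside these.

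**Figure D1:**
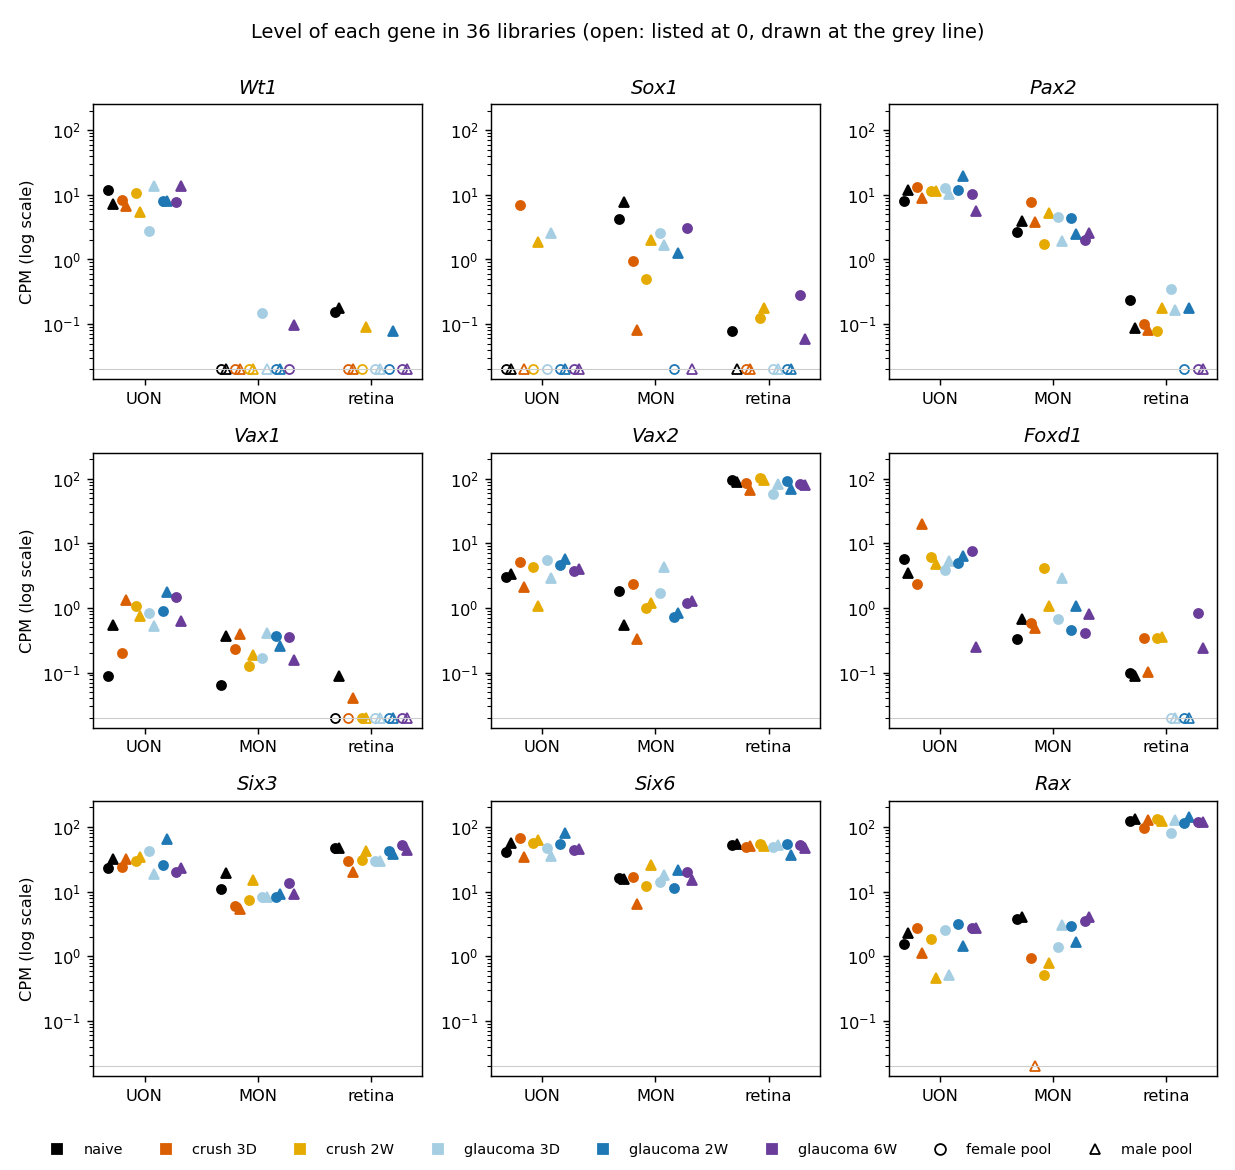
CPM on a log axis of each gene in the 36 libraries, by tissue (UON, MON, retina); colours give the injury group, circles the female pool and triangles the male pool, and open symbols libraries listed at 0. Wt1 lies between 2.77 and 13.7 CPM in UON and at or under 0.18 CPM elsewhere, while Vax2 and Rax stand highest in retina.

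Per length, the order of levels in naive UON was Six6, Six3, Wt1, Pax2, Vax2, Rax, Foxd1 and Vax1, with Sox1 at 0. Mean FPKM was 9.38 ± 1.87 (SD, n = 2) for Six6, 5.81 ± 1.05 for Six3, 3.87 ± 0.69 for Wt1, 2.02 ± 0.50 for Pax2 and 1.98 ± 0.10 for Vax2. Pax2 and Vax2 did not differ beyond their spread, nor did Rax (0.74 FPKM) and Foxd1 (0.70 ± 0.27). In naive MON the highest were Six3 (3.22 ± 1.5 FPKM) and Six6 (3.06 ± 0.23), which overlapped, followed by Rax (1.28 ± 0.18) and Sox1 (0.96 ± 0.48). Naive retina was led by Rax (80.7 ± 5.71 FPKM) and Vax2 (76.8 ± 3.23), which did not differ beyond their spread, and then by Six6 (13.8 ± 0.69) and Six3 (13.5 ± 0.43).

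Six6 and Six3 are paralogous homeobox factors kept in the adult retina. Six6 (chr12:72939892-72944899) stood at 40.5 and 56.6 CPM in naive UON, 16.3 and 15.9 CPM in naive MON and 51.8 and 54.2 CPM in naive retina (female pool first). Both UON pools were above both MON pools, and the UON and retina ranges overlapped. The log2 fold change was 1.54 ± 0.23 for UON over MON (SE, adjusted p = 0.0080), −0.18 ± 0.22 for UON over retina (adjusted p = 0.57) and −1.72 ± 0.23 for MON over retina (adjusted p = 0.0013).

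Six3 (chr17:85613608-85629302) stood at 23.1 and 31.8 CPM in naive UON, 11.1 and 19.4 CPM in naive MON and 47.1 and 47.9 CPM in naive retina, so that the tissues did not overlap. Over retina the log2 fold change was −1.69 ± 0.28 (SE) in MON (adjusted p = 0.0033). In UON it was −0.86 ± 0.27 (adjusted p = 0.043), short of the fold limit; leaving out the male retina pool took it past that limit (log2 fold change −1.15, adjusted p = 0.046). Relative to retina, photoreceptor RNA stood far lower in the nerve than either gene. As a share of the median of the 12 retina libraries, Six6 stood at 67.0 to 158% in UON (median 99.3%) and 12.6 to 49.5% in MON, and Six3 at 46.0 to 158% in UON (median 68.7%) and 13.4 to 48.0% in MON. Both UON maxima came from the glaucoma 2W male pool, which also had the highest UON photoreceptor sum (381 CPM) and floor (0.774 CPM). The next highest UON values were 67.8 CPM for Six6 (crush 3D female pool) and 42.5 CPM for Six3 (glaucoma 3D female pool). Photoreceptor genes stood at 0.021 to 0.61% in UON, and bipolar and amacrine genes at 1.56 to 7.05% in UON and 7.78 to 26.0% in MON. Markers of retinal ganglion cells stood at 2.83 to 42.6% in UON and 1.96 to 25.1% in MON. The sum of 6 Muller glia genes (Rlbp1, Glul, Slc1a3, Dkk3, Abca8a and Kcnj10) stood at 236 to 434% of the retina median in UON and 75.0 to 207% in MON. It cannot be read as Muller glia in the nerve. The sum of 6 astrocyte genes was higher there as well, at 12490 to 21480 CPM in UON, 6700 to 21150 CPM in MON and 263 to 430 CPM in retina. The part of any cell type in the levels of Six3 and Six6 was not tested.

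**Figure D2:**
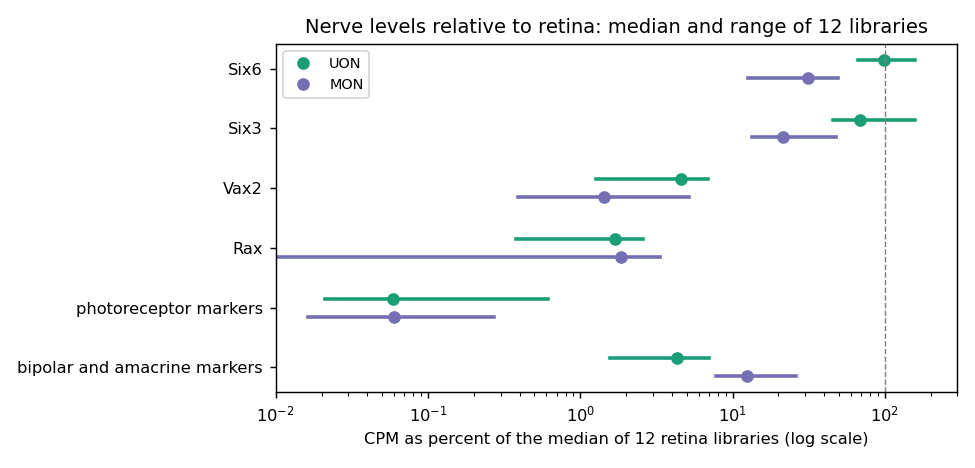
Level in each nerve region as a percent of the median of the 12 retina libraries, on a log axis; dots are medians and lines the range of 12 libraries (the MON range of Rax reaches 0 and is drawn from the axis edge). Six6 in UON centres at 99.3% and photoreceptor markers at 0.0591%.

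Exons of antisense genes overlap both. Gm28528 shares 168 bases and Six3os1 106 bases with exons of Six3, and 4930447C04Rik shares 192 bases with those of Six6. Strand is not stated for the library kit, so reads in those bases cannot be assigned to one gene. Six3os1, a long noncoding RNA divergent from Six3, was at 95.3 to 288% of its retina median in UON and at 25.6 to 94.0% in MON. When the antisense genes were summed with their partners, a step chosen after seeing the data, every member call between tissues stayed.

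Vax2 and Rax were the retinal members. Vax2 (chr6:83711264-83738313) stood at 95.4 and 87.6 CPM in naive retina, 2.98 and 3.37 CPM in naive UON and 1.81 and 0.54 CPM in naive MON. Over retina the log2 fold change was −4.87 ± 0.43 (SE) in UON (adjusted p = 1.7e-04) and −6.23 ± 0.47 in MON (adjusted p = 1.1e-04). Vax2os, which shares no exon base with Vax2, was at a median of 0.10% of its retina level in UON, where Vax2 was at a median of 4.61%.

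Rax (chr18:65928277-65939787), a homeobox factor needed for the eye field and kept in photoreceptors and Muller glia, stood at 123 and 134 CPM in naive retina, 1.57 and 2.27 CPM in naive UON and 3.80 and 4.03 CPM in naive MON. Over retina the log2 fold change was −6.12 ± 0.27 (SE) in UON (adjusted p = 2.5e-05) and −5.03 ± 0.25 in MON (adjusted p = 3.1e-05). In UON over MON it was −1.09 ± 0.23 (adjusted p = 0.031), a call that was lost without the UON female pool (−0.89, adjusted p = 0.21), the UON male pool (−1.27, adjusted p = 0.086) or the MON female pool (−0.95, adjusted p = 0.076). By the estimated counts, the 3-exon transcript ENSMUST00000025396 held 89.6% of the Rax counts summed over 12 retina libraries and 0.9% over 12 MON libraries. The 2-exon ENSMUST00000238035 held 96.8% in MON. In UON the shares were 36.6 and 54.7%. The 3-exon transcript was above 0 in 6 UON and 2 MON libraries, against 12 in retina. Rax had few counts in the nerve, and a transcript listed at 0 can be a failed estimate. A difference in transcripts was not tested. Raxos1 shares 1604 exon bases with Rax and was listed at 0 in most nerve libraries.

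Pax2, Vax1 and Foxd1 were the nerve members beside Wt1. Pax2 (chr19:44756045-44837871) stood at 8.13 and 11.8 CPM in naive UON, 2.67 and 3.91 CPM in naive MON and 0.23 and 0.09 CPM in naive retina, without overlap. It was higher than in retina by 5.85 ± 0.75 (log2, SE) in UON (adjusted p = 9.5e-04) and by 4.29 ± 0.71 in MON (adjusted p = 0.0036). Foxd1 (chr13:98354242-98359305) stood at 5.67 and 3.42 CPM in naive UON, 0.33 and 0.66 CPM in naive MON and 0.10 and 0.09 CPM in naive retina. It was called higher in UON than in retina, by 5.54 ± 0.97 (adjusted p = 0.0041), and not in MON (2.35 ± 0.90, adjusted p = 0.094). Naive retina held 12 and 4 counts of Pax2 and 5 and 4 counts of Foxd1, at or under the floor. Both genes passed the filter through the nerve and could only be called higher there, so that their calls against retina are a description. Vax1 (chr19:59166187-59170056) was near the floor in naive libraries, at 0.09 and 0.55 CPM in UON, 0.06 and 0.36 CPM in MON and 0 and 0.09 CPM in retina, and no naive comparison of it passed the test. In all, 4 of 7 members were called between UON and retina (2 higher and 2 lower in UON), where 31.7% of genes were (18.2% higher and 13.5% lower). Between MON and retina 5 of 7 were called (1 higher and 4 lower in MON), where 27.6% of genes were (16.7% higher and 10.9% lower).

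The 30 libraries of injured mice took no part in choosing Wt1 and Sox1, and in them all 9 members passed the filter on low counts and were tested with condition and sex in the fit. In UON against MON, 7 of 9 members were called, all higher in UON, where 12.4% of 28936 genes were called in either direction (5.32% higher and 7.10% lower) and the median log2 fold change of all genes was −0.03. The members' median was 1.70. Against retina, 6 of 9 were called for UON (4 higher, 2 lower) where 46.8% of genes were called (21.8% higher and 25% lower). For MON 8 of 9 were called (4 higher, 4 lower) where 44.6% of genes were (22.0% higher and 22.6% lower). These counts are a description: Wt1 passed the filter through UON, and Sox1, Pax2 and Vax1 through the nerve, so that where such a gene is near 0 in one tissue it could pass only by being higher in the other. Without Wt1, 6 of 8 were called in UON against MON.

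Wt1 kept its regional difference after injury. Its level in the 10 injured UON libraries was 2.77 CPM at the lowest, 7.99 at the median and 13.7 at the highest, against at most 0.15 CPM in MON and 0.09 CPM in retina, so that UON overlapped with neither. The fitted log2 fold change was 8.15 ± 0.82 (SE) over MON and 8.77 ± 0.84 over retina. It depends on libraries at 0 and on a gene that passed the filter through UON, so that no p is given. In all 10 injured pools UON was above MON. Wt1os, transcribed away from Wt1 without sharing an exon base, was at 0.19 to 3.16 CPM in UON and at most 0.05 CPM in MON.

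The regional difference of Sox1 was not called in injured mice. In injured UON it was listed at 0 in 7 libraries but stood at 7.06 CPM in the crush 3D female pool, 2.56 CPM in the glaucoma 3D male pool and 1.88 CPM in the crush 2W male pool. In injured MON it was at 0 CPM at the lowest, 1.09 at the median and 3.06 at the highest, and the tissues overlapped. The naive MON values helped to choose this gene, so the injured values are not compared with them. On the log2 scale UON over MON was −0.79 ± 1.49 (SE, adjusted p = 0.77). Against retina it was 4.60 ± 1.48 in MON and 3.81 ± 1.71 in UON. These values depend on libraries at 0 and on a gene that passed the filter through the nerve, so that no p is given.

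The UON libraries split between a Sox1 value of 0 and values well above the floor, while those of MON were graded. Over the 12 UON libraries, 9 were listed at 0 and the other 3 at 97, 119 and 318 estimated counts. Over the 12 MON libraries, 2 were at 0 and the other 10 between 4 and 264 counts. Sox1 lies on the same strand within an intron of the long noncoding gene Sox1ot (chr8:12385771-12436768) and shares no exon base with it. Sox1ot ran from 66 to 197 counts in 11 of 12 UON libraries and was at 3 counts in the crush 2W male pool, and in MON it was at 0 to 32. Both genes come from one assembly step that divides coverage between transcripts, and an exact 0 can be a failed estimate there, so that a library listed at 0 is not read as one without Sox1 RNA.

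**Figure D3:**
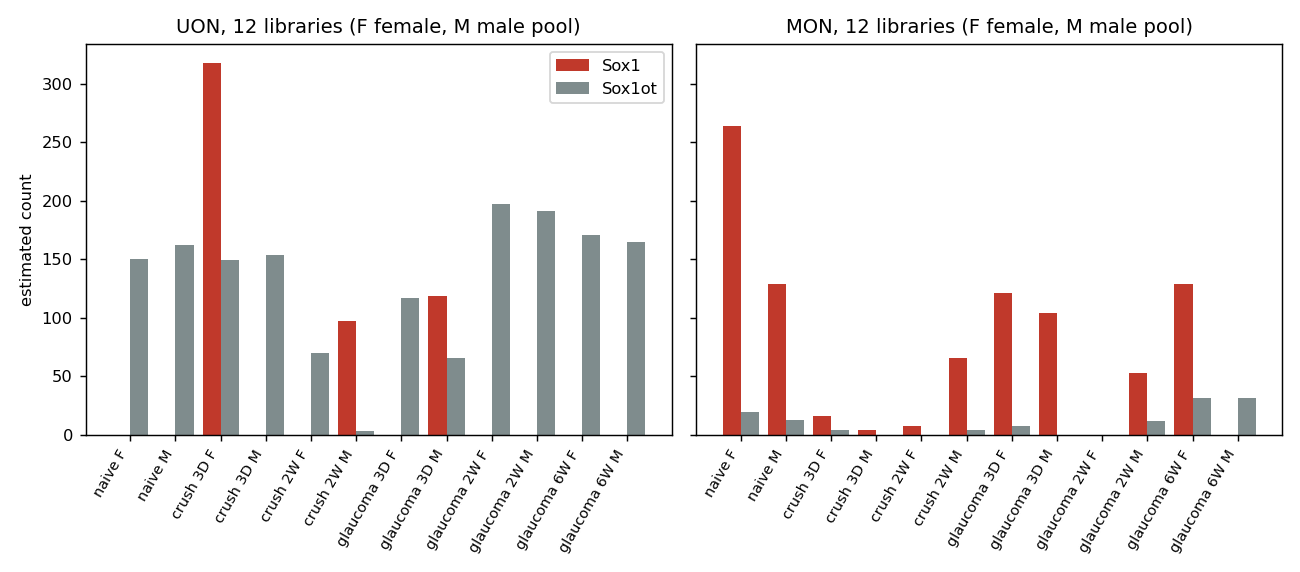
Estimated counts of Sox1 (red bars) and of Sox1ot (grey bars), which contains Sox1 in an intron, in the 12 UON and 12 MON libraries. Sox1 is listed at 0 in 9 UON libraries and at 318 counts in the crush 3D female pool.

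Six6 and Six3 differed between the nerve regions of injured mice. In injured UON, Six6 was 34.4 CPM at the lowest, 51.0 at the median and 81.0 at the highest, against 6.49, 16 and 25.4 CPM in MON, without overlap. The log2 fold change was 1.70 ± 0.18 (SE, adjusted p = 7.1e-08), and UON was above MON in all 12 pools. Against retina (37.3, 50.4 and 54.9 CPM) it was 0.07 ± 0.18 in UON (adjusted p = 0.74) and −1.63 ± 0.18 in MON (adjusted p = 1.0e-08). Six3 was at 18.6, 27.8 and 64.0 CPM in injured UON and at 5.41, 8.29 and 15.3 CPM in MON, again without overlap. It was 1.81 ± 0.20 higher in UON (adjusted p = 1.3e-07). Against retina it was −0.19 ± 0.19 in UON (adjusted p = 0.42) and −2.0 ± 0.20 in MON (adjusted p = 1.4e-09).

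**Figure D4:**
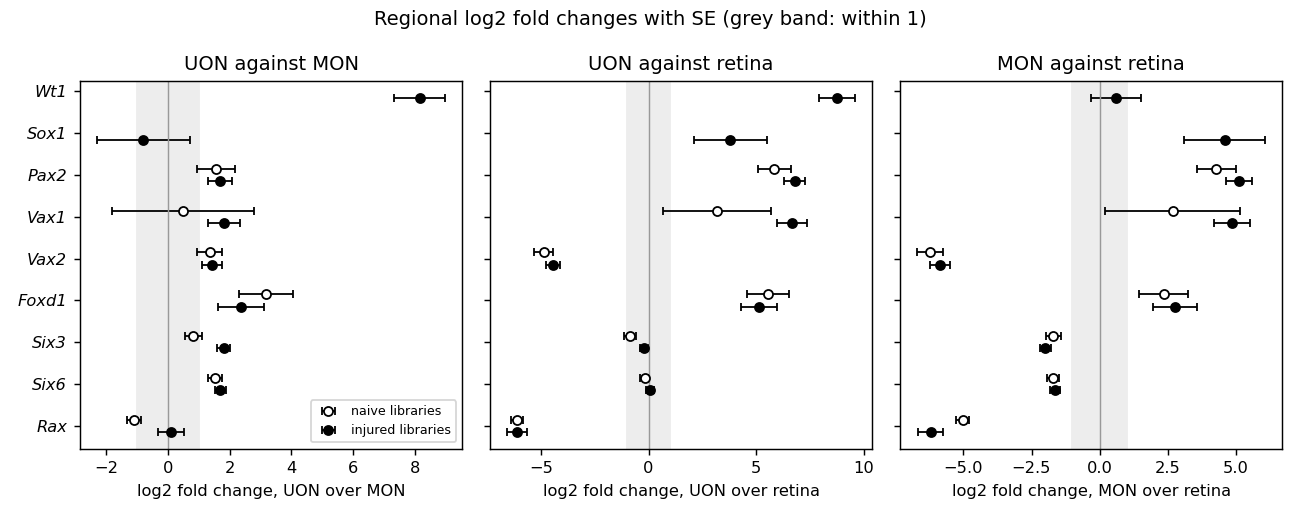
Log2 fold changes with SE of the members between tissues, in the 6 naive libraries (open) and the 30 injured ones (filled); the grey band marks changes within 1. The naive values of Wt1 and Sox1 are left out, and Six6 lies at 1.54 and 1.70 in UON over MON.

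The stalk and ventral factors Pax2, Vax1 and Vax2 were also higher in injured UON than in MON. Pax2 was 5.60, 11.5 and 19.3 CPM (lowest, median, highest) in UON and 1.76, 3.17 and 7.82 CPM in MON, and higher in UON in all 12 pools although the ranges met. Its log2 fold change was 1.68 ± 0.39 (SE, adjusted p = 0.0019), and over retina it was 6.80 ± 0.50 in UON and 5.12 ± 0.47 in MON. Vax1 was 0.20, 0.86 and 1.74 CPM in UON, 0.13, 0.25 and 0.41 CPM in MON and at 0 in 9 of the 12 retina libraries. It was 1.82 ± 0.53 higher in UON than in MON (adjusted p = 0.012), a call lost without the glaucoma 2W group (1.76, adjusted p = 0.059) or the glaucoma 6W group (1.77, adjusted p = 0.053), with little change in the fold. Most injured MON libraries held Vax1 under the floor of 12 counts, from 2 (crush 2W female pool) to 25 counts (glaucoma 3D male pool). The lowest injured UON library held 9 (crush 3D female pool), so the size of this fold is uncertain. Vax2 was 1.07, 4.13 and 5.74 CPM in UON, 0.33, 1.19 and 4.35 CPM in MON and 58.7, 82.4 and 101 CPM in retina. It was 1.43 ± 0.31 higher in UON than in MON (adjusted p = 0.0012), and −4.43 ± 0.33 in UON over retina. The highest UON values of Pax2, Vax1 and Vax2 all came from the glaucoma 2W male pool, as did those of Six6 and Six3.

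Foxd1 varied widely among UON libraries. It was 0.25 CPM in the glaucoma 6W male pool, 5.17 at the median of the injured UON libraries and 19.7 CPM in the crush 3D male pool, against 0.40, 0.74 and 4.10 CPM in MON. The log2 fold change of 2.37 ± 0.74 (SE) was called (adjusted p = 0.020), and was lost without the crush 3D group (1.92, adjusted p = 0.12) or the glaucoma 2W group (2.19, adjusted p = 0.070). The summed level of 10 sclera, meninges and fibroblast genes ran from 2500 to 37470 CPM in UON, from 1113 to 7299 CPM in MON and from 95.4 to 254 CPM in retina. The lowest UON sum was that of the same glaucoma 6W male pool, and the crush 3D male pool stood at 17490 CPM. In that glaucoma 6W male pool Wt1 was at 13.7 CPM, near its highest. The part of these cells in the levels of Foxd1 and Wt1 was not tested.

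Rax was not called between the injured nerve regions (0.10 ± 0.41, log2 and SE, adjusted p = 0.91). It was 0.47, 2.19 and 3.15 CPM in UON, 0, 1.52 and 4.10 CPM in MON and 81.4, 121 and 141 CPM in retina, and over retina it was −6.11 ± 0.47 in UON and −6.21 ± 0.47 in MON.

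Injury was compared with naive next, to ask whether these factors respond to crush or to raised eye pressure. By edgeR, 0 of 36 tests of members were called in the 6 crush comparisons, where 1.15% of all tests were called, and 0 of 57 in the 9 glaucoma comparisons, where 0.00146% were. At an unadjusted p under 0.05 there were 2 and 1, and DESeq2 called 1 and 0, each given without the share over all genes. Of the crush comparisons MON at 3D had 4.26% of genes called, MON at 2W 2.72%, retina at 2W 0.313%, retina at 3D 0.0221%, UON at 2W 0.0281% and UON at 3D 0%. Of the glaucoma comparisons retina had 0.00429% called at 3D and 0.00858% at 6W, and the other 7 had 0%. The filter left all 9 members in UON after crush and 8 after glaucoma (without Sox1), 7 in MON after crush (without Wt1 and Vax1) and 8 after glaucoma (without Wt1), and 5 in retina (Vax2, Foxd1, Six3, Six6 and Rax). Wt1 and Sox1 were not tested against naive in the nerve.

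Six3 and Rax in MON after crush came closest. Six3 stood at 11.1 and 19.4 CPM in naive MON and at 6.01 and 5.41 CPM at crush 3D, and the groups did not overlap. The log2 fold change was −1.25 ± 0.44 (SE, adjusted p = 0.17), and −1.27 (adjusted p = 0.046) without the crush 2W female pool. At crush 2W it was 7.37 and 15.3 CPM. Rax stood at 3.80 and 4.03 CPM in naive MON, 0.93 and 0 CPM at crush 3D and 0.50 and 0.80 CPM at crush 2W. Its change at 3D was −3.59 ± 1.70 (adjusted p = 0.28), while DESeq2 gave −3.70 (adjusted p = 0.046). In edgeR it was −4.3 without either crush 2W pool. It was −10.27 without the crush 3D female pool, where only the library at 0 is left in that group. In MON after glaucoma, Rax was at 1.40 and 3.08 CPM at 3D and 2.91 and 1.65 CPM at 2W, under both naive pools, and at 3.48 and 4.10 CPM at 6W (female pool first). Six3 in MON was at a log2 fold change of −0.92 ± 0.40 (SE, adjusted p = 0.62) at glaucoma 3D and −0.82 ± 0.40 (adjusted p = 0.62) at 2W. Cell markers moved in the same MON libraries. The oligodendrocyte sum was 165100 and 123000 CPM in naive MON, 86810 and 72560 CPM at crush 3D and 46860 and 59790 CPM at crush 2W. The sum of microglia and macrophage genes was 722 and 730 CPM in naive MON, 1665 and 2212 CPM at crush 3D and 3866 and 2125 CPM at crush 2W. The part of these cells in the levels of Six3 and Rax was not tested.

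**Figure D5:**
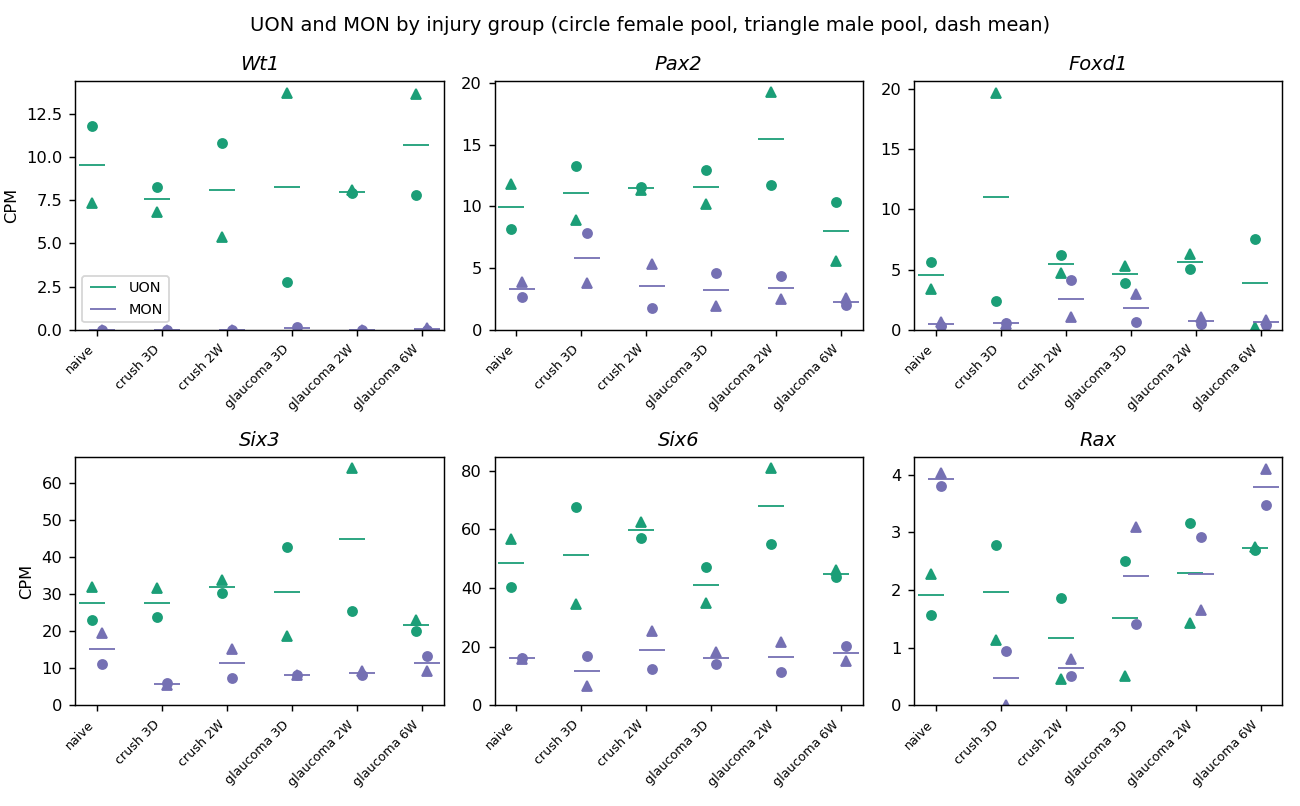
CPM of 6 members in UON (green) and MON (violet) by injury group; circles are female pools, triangles male pools and dashes the mean of both. Rax in MON stands at 3.80 and 4.03 CPM in naive pools and at 0.93 and 0 CPM at crush 3D, and Six6 is higher in UON than in MON in each group.

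In retina the lowest unadjusted p belonged to Six3. It was 47.1 and 47.9 CPM in naive retina, 29.9 and 20.4 CPM at crush 3D and 30.2 and 29.8 CPM at glaucoma 3D, so that neither overlapped with naive. The log2 fold change was −0.90 ± 0.25 (SE, adjusted p = 0.58) and −0.66 ± 0.15 (adjusted p = 0.51). At glaucoma 6W it was 52.2 and 44.3 CPM. In the same retinas Six6 changed by −0.07 ± 0.12 and −0.07 ± 0.19.

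In UON the changes of Six6 from naive ran from −0.20 ± 0.30 at glaucoma 3D to 0.50 ± 0.30 at glaucoma 2W (log2, SE), and those of Pax2 from −0.33 ± 0.47 at glaucoma 6W to 0.65 ± 0.47 at glaucoma 2W. Changes of Foxd1 had SEs of 0.92 to 1.17, so that only large differences could have been seen with 2 pools.

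Between injured groups, 0 of 88 tests of members were called in 12 comparisons, where 0.0166% of all tests were. For crush against glaucoma the share was 0% (UON), 0.00424% (MON) and 0.00416% (retina) at 3D, and 0.00433% (UON), 0.0212% (MON) and 0.0416% (retina) at 2W. For crush 2W against 3D it was 0.0303% in UON, 0.0339% in MON and 0.0416% in retina. Glaucoma 6W against 3D had 0.00433% (UON), 0% (MON) and 0.0125% (retina). DESeq2 called 2, both of Sox1 in UON (crush against glaucoma at 2W, and glaucoma 6W against 3D), where 1 pool carries the counts and the rest are at 0. The difference in response between UON and MON was tested for 7 members at each of 5 injury groups, and 0 of 35 were called, where 0.00235% of all tests were (0.0120% at crush 3D and 0% in the other 4 groups). The lowest adjusted p was 0.60, for Foxd1 at crush 2W. For Six3 at crush 3D the difference was 1.35 ± 0.52 (log2, SE, adjusted p = 0.63).

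Other patterning genes were described from lists chosen with earlier results known, and their counts are given without a test. Over all genes, 4.83% were called higher and 4.80% lower in naive UON than in MON, and 5.32% higher and 7.10% lower in injured libraries, and each list is to be read against these shares. Of 20 eye field and retinal progenitor factors, 6 were called higher and 0 lower in naive UON than in MON (median log2 fold change 1.21, all genes −0.06), and 7 higher and 1 lower in injured libraries (median 0.80). Among those higher in naive UON were the nuclear receptor Rorb (2.96 ± 0.37, log2 and SE) and the T-box factor Tbx3 (2.58 ± 0.62). Against retina, Crx and Otx2, factors of photoreceptors, were at log2 fold changes of −10.40 ± 0.73 and −8.92 ± 0.74 in naive UON. Crx stood at 699 CPM in retina and 0.61 CPM in UON on average, whereas Six3 and Six6 held a large share of their retina level there.

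Of 21 tested optic stalk and SHH signalling genes, 3 were called higher and 3 lower in naive UON than in MON (4.83% and 4.80% of all genes), and 8 higher and 4 lower in injured libraries (5.32% and 7.10% of all genes). Lower in UON were Nkx2-2 (−4.80 ± 0.76, log2 and SE), a factor of oligodendrocyte precursors, Dcc (−4.29 ± 0.39), the netrin receptor, and Hhip (−3.37 ± 0.43), which binds SHH; Fgfr1, a fibroblast growth factor receptor, was 1.99 ± 0.23 higher. In injured libraries Gli1, a target of SHH signalling, was 3.81 ± 0.87 higher in UON, and Shh itself was lower, at −3.30 ± 0.92. Shh was at 0 in both naive UON libraries and under the floor in naive MON (0.13 ± 0.18 CPM, SD, n = 2), against 1.69 ± 0.44 CPM in naive retina. Against naive, only Gas1 (−5.49 ± 0.59 at crush 3D) and Hhip (−2.12 ± 0.45 at 3D and −2.22 ± 0.44 at 2W) of all 6 lists were called, both in MON after crush.

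Of 23 genes of the retinal axes, 5 were called higher and 1 lower in naive UON than in MON (median 1.17), where 9.63% of all genes were called, and 11 higher and 2 lower in injured libraries (median 1.08), where 12.4% were. Aldh1a2, which makes retinoic acid, was at 288 ± 55.5 CPM (SD, n = 2) in naive UON and 29.2 ± 14.8 CPM in MON, a log2 fold change of 3.39 ± 0.42. The ephrin receptors Ephb2 and Ephb3 were 2.51 ± 0.26 and 2.43 ± 0.34 higher, and their ligand Efnb2 2.29 ± 0.46. Of 4 tested genes of the PAX list, Pax6 was lower in naive UON than in retina (−2.69 ± 0.35) and none was called between UON and MON. Of the SOXB genes, Sox21 was lower (−2.58 ± 0.90) and Sox2 higher (1.02 ± 0.23) in injured UON than in MON.

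Of 13 tested WT1 partners and mesothelial genes, 2 were called higher in naive UON than in MON (4.83% of all genes), and 7 of 14 in injured libraries (5.32% of all genes), with none lower. Osr1, a factor of kidney and mesoderm, was 2.64 ± 0.48 higher and Podxl, a podocyte and endothelial surface protein, 1.31 ± 0.23 higher in naive mice. In injured mice those higher included Msln, mesothelin (3.63 ± 0.90), Osr1 (2.98 ± 0.53) and Tbx18 (2.27 ± 0.43). The sclera, meninges and fibroblast sums given above moved in the same direction, and their part in this list was not tested.

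The genes most like each member were taken by Pearson's r of log2 CPM over the 36 libraries, which share 3 tissues, so that r mostly follows tissue and is given as a description. For Wt1 they were Gpld1, Slc44a5 and Wt1os (r of 0.93 each), for Pax2 Nes, Vim and Olfml2b (all 0.96), for Vax2 Pax6, Nxnl2 and Klc3 (all 0.97) and for Rax they included Vamp2 and Ndrg3 (both 0.96). Nes and Vim are intermediate filament genes of astrocytes and progenitors. For Foxd1 they were Msln, Gjb2 and Wnt6 (0.90 to 0.91), and within the 12 UON libraries Fzd2, Tnfsf13os and Osr1 (0.94 to 0.95). For Vax1 they were Sox13, Npdc1 and Tgfb1i1 (0.91 each), for Six6 Cntnap2, Pla2g5 and Samd14 (0.91 to 0.92), and for Six3 Foxo3, Lonrf2 and Col23a1 (0.90 to 0.91). For Sox1 the highest were Tbc1d10b, Wnt7a and Daw1 (0.62 each).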

How the data were processed

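Pooled RNA of UON, MON and retina (n = 2 pools per group) was sequenced with paired 150 base reads from an ultra-low input kit. By the submitters' notes and the study's methods, alignment used HISAT2 v2.2.1 (build GRCm38). StringTie v1.3.0, given Gencode M25, built the transcripts. Estimated counts of genes and transcripts, as deposited, are the authors' output of its count script and carry no normalization. The deposited FPKM and TPM are the authors' StringTie values. In some deposited FPKM and TPM columns, treated as a score, 15 FPKM lay just below 0 and were set to 0.

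Counts were tested in edgeR 4.0.16 (R 4.3.3): TMM scaling, filterByExpr (minimum count 10, minimum total 15), the quasi-likelihood test and Benjamini-Hochberg adjustment over all genes tested, with a call at adjusted p under 0.05 and log2 fold change beyond 1. SE is the log2 fold change over the square root of F. The naive fit held 6 libraries with tissue and sex, the injured fit 30 with tissue, condition and sex, and each injury fit group and sex within a tissue. Same-sex pools of a condition came from the same mice (the study's methods), although female minus male differences correlated by −0.04 to 0.09 over 18 pairs of tissues. Alternatives were DESeq2 1.42.0, RLE factors, no filter, the replicate block, fits over more libraries, limma-trend 3.58.1 on log2(FPKM + 0.1), pools left out, and antisense genes summed. P-values measure the spread between pools of 2 mice that each fit leaves over. In the injured fit that spread also holds tissue differences that vary with condition or sex. In the other fits it also holds sex differences that vary between groups. Named were all members, called genes of the lists (at most 4 per list and comparison by size), overlapping genes, the 3 genes most like each member, and the next genes after Wt1 and Sox1. Some genes that this rule picks are not reported here. Members and lists were chosen with earlier results of these data known. Sequences are from RefSeq (6 of 9 members have a window); overlaps are from Gencode M21, whose member spans equal those of the deposited files.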

Additional observations from a re-analysis of the deposited data

How the results depend on the processing

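The counts below are given without the share over all genes under each alternative, and describe the members only. Between tissues, the number of members called moved most in naive UON against MON. There, in place of 2 called members, 4 were called with no filter on low counts, 5 by DESeq2, 1 with 36 libraries in one fit and 1 by limma-trend on FPKM, and 1 to 4 when single pools were left out. For MON crush 3D against naive, in place of 0, 1 member (Rax) was called with no filter and 1 by DESeq2, and 0 to 2 when single pools were left out. DESeq2 called 1 member (Sox1) in UON for crush against glaucoma at 2W and 1 for glaucoma 6W against 3D. Leaving out single pools gave 0 to 1 in MON for crush against glaucoma at 3D and for crush 2W against 3D. The cause was not tested. No member call changed direction under any alternative run. With the pool of mice as a replicate block, the injured fit called the same number of members, 7 for UON against MON, 6 for UON against retina and 8 for MON against retina; without the sex term, the naive fit called 3, 4 and 5, adding Foxd1 in UON against MON, and the replicate block changed no other count. With 2 pools per group, SEs of changes from naive in the nerve ran from 0.77 to 1.17 for Foxd1, from 0.57 to 1.70 for Rax and from 1.22 to 1.79 for Vax1 (log2), so that small changes of these genes were not detectable.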
